A study of Mus musculus with 7 samples.

Results

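Lyve1, Folr2, Cbr2, Cd163, Mrc1, Mgl2 and Timd4 are mRNAs commonly used to mark macrophages that live in the heart before injury. These 7 genes were taken by symbol from the 7 deposited single-cell matrices, in which they are 7 of 27514 gene names shared by all annotations, and each was found in every matrix. They were followed in monocytes/macrophages of the mouse heart from the steady state to day 7 after myocardial infarction, for which the left descendant coronary artery had been tied off permanently.

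All mice were C57BL6/J with no genetic modification given in the labels. In the first experiment, viable CD45+ leukocytes were sorted from male hearts and each time point was 1 library made from pooled mice: 5 without infarct (steady state) and 5, 5, 5 and 3 at days 1, 3, 5 and 7. A neutrophil reduction step preceded that sort. In the second experiment, CD11b+ cells of male infarcted hearts at days 1, 3 and 5 (5, 5 and 3 mice) carried 3 hashtag antibodies, 1 per day, and 10 antibodies to surface proteins, and were read as 1 pool (the CD11b+ pool below). In both experiments cells stained by an anti-CD45.2 antibody given intravenously were gated out. The steady-state hearts carry the series-wide condition label of infarction, while their time point and the extraction text describe hearts without infarct. The ages of the mice of both experiments are not given in the labels. The last matrix pools CD11b+ cells of blood and heart from 8- to 10-week-old control, sham-operated and infarcted mice under 7 hashtags that the labels do not tie to conditions, so it enters no comparison. Infarcted hearts were cut to the infarct, its border and adjacent myocardium, and control hearts to a similar piece of the left ventricle, so levels describe that region and not the whole heart.

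Resident cardiac macrophages are seeded largely before birth and maintain themselves with little input from blood monocytes, although some subsets are slowly replaced. After infarction, many of those in the ischemic area are lost within a day and monocytes from blood enter and become macrophages. The resident subset marked by Lyve1, Folr2 and Timd4 is known for low MHC class II and for scavenging and clearing dying cells.

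The 7 genes fall into a few roles. Cd163 (receptor for haptoglobin-hemoglobin complexes), Mrc1 (mannose receptor CD206) and Mgl2 (galactose-type lectin CD301b) encode endocytic receptors. Timd4 encodes TIM4, a phosphatidylserine receptor for apoptotic cells, Folr2 the folate receptor beta and Lyve1 a hyaluronan receptor that lymphatic endothelium also makes. Cbr2 encodes a carbonyl reductase. On GRCm38 in the GENCODE vM21 annotation, all 7 are protein coding. Lyve1 lies at chr7:110850607-110863239 on the minus strand, Folr2 at chr7:101839988-101857194 on the minus strand and Cbr2 at chr11:120729489-120732114 on the minus strand. Cd163 lies at chr6:124304656-124330527, Mrc1 at chr2:14229392-14332057, Mgl2 at chr11:70130329-70137550 and Timd4 at chr11:46810800-46844332, each on the plus strand.

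Cell classes came from clusters built without the 7 genes and named by fixed marker lists. The class held 520, 246, 630, 733 and 564 cells of the CD45+ libraries (steady state and days 1, 3, 5 and 7) and 229, 1098 and 1353 cells of the CD11b+ pool (days 1, 3 and 5). Its median depth was 7196 to 10646 UMIs (unique molecular identifiers, counted transcripts) per cell in the CD45+ libraries and 22304 to 28694 in the CD11b+ pool. At most 2 cell barcodes were shared between any pair of CD45+ libraries, and 28 between the CD11b+ pool and the blood and heart pool. The macrophage genes Csf1r, Adgre1 and C1qa were each in 61.9 to 100% of cells of the class (no thinning) in 7 of the 8 groups. The class at day 1 of the CD45+ libraries stood apart, with Csf1r in 68.7%, Adgre1 in 52.0% and C1qa in 21.1% of cells, so most of these cells had no C1qa UMI. Neutrophil markers summed there to 19673 CPM (UMIs of a gene or list scaled to a common total of 1000000 UMIs), against 190 to 2262 CPM at the other times of those libraries and 1034 to 2632 CPM in the CD11b+ pool. Their part in the day 1 values was not tested. Of the lymphatic endothelial gene Prox1, which marks the other cell type known for Lyve1, 0 to 5 UMIs were found in the class at any time.

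The stretches of 250 bases before the RefSeq transcription start of 4 of the genes are shown here as sequence context. Cd163 and Folr2 were the genes that passed the test between days, in opposite directions, and Mrc1 and Timd4 are examples with matches to motifs of macrophage transcription factors. No value below depends on these sequences. Sequences are from RefSeq on GRCm38.p6, written 5′ to 3′ on the gene's strand, with motif matches in capitals. The windows are chr6:124304401-124304650 on the plus strand for Cd163, chr7:101857191-101857440 on the minus strand for Folr2, chr2:14229164-14229413 on the plus strand for Mrc1 and chr11:46810549-46810798 on the plus strand for Timd4.
Cd163: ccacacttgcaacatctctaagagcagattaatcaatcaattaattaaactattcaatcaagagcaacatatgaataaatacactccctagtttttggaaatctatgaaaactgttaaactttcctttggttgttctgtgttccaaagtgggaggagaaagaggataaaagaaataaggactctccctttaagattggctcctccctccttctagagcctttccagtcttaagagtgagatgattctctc
Folr2: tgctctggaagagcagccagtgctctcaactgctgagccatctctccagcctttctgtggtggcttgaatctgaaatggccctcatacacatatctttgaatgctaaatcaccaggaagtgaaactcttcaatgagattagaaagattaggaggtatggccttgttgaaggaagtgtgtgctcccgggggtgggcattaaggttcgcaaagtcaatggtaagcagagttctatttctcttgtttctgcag
Mrc1: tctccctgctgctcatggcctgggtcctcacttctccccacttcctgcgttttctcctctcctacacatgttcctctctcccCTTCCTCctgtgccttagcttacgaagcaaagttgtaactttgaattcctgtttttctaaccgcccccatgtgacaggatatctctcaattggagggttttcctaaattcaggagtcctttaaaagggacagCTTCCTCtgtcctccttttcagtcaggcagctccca
Timd4: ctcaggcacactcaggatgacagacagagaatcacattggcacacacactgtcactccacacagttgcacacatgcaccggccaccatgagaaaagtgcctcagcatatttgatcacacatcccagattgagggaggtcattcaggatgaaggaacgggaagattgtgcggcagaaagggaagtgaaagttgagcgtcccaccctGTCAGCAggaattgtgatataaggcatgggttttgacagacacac
The letters searched on both strands were GAGGAAG for PU.1, TGCTGAC for a MAF half-site and TGANTCA for AP-1, which do not overlap each other in any window. Mrc1 held PU.1 letters beginning 168 and 36 bases before the start, both on the opposite strand. Timd4 held the MAF letters 45 bases before the start, also on the opposite strand. The windows of Cd163 and Folr2 held none of the 3, nor did that of Mgl2, whereas Cbr2 held PU.1 letters 79 bases before its start and a second listed start of Folr2 held AP-1 letters 74 bases before. Among all 32851 RefSeq promoter windows of that length, 10.6% held the PU.1 letters, 3.81% the MAF letters and 6.75% the AP-1 letters. A match describes letters and not binding, and Lyve1 was not in the promoter table used.

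All 7 genes were highest in the steady-state heart and lower at every later time in the CD45+ libraries, but they reached their low point at different days. Lyve1, Cd163, Mgl2 and Timd4 measured lowest on day 3, Folr2 and Cbr2 on day 1, and Mrc1 was equally low on both days. Neighbouring low values often overlapped in their counting intervals, as did those of Mgl2 at days 1, 3 and 5, Cd163 at days 3 and 5, Lyve1 at days 1 and 5 and Timd4 at days 1 and 3. Every value below is CPM of the class, with an exact Poisson 95% interval where given. Each time point of an experiment is 1 library or 1 hashtag, so intervals cover counting error only and there is no test of the steady state or of day 7. In such sums, fewer cells with a transcript and fewer transcripts per cell cannot be told apart. Molecules were counted at the 3′ end, so CPM is compared within a gene and not between genes.

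Among the endocytic receptors, Cd163 measured 224 CPM (209 to 240) in the steady state and 80.5 (69.4 to 92.9), 5.13 (3.61 to 7.07), 6.39 (4.63 to 8.61) and 32.3 (28.0 to 37.0) CPM at days 1, 3, 5 and 7. In the CD11b+ pool, Cd163 measured 86.5 (78.8 to 94.8), 9.34 (8.37 to 10.4) and 5.74 (5.04 to 6.51) CPM at days 1, 3 and 5. Both experiments thus had Cd163 high on day 1 and low on days 3 and 5, with no overlap between day 1 and the later pair of days. Mrc1 measured 351 CPM in the steady state, 59.5, 59.3, 145 and 164 CPM at days 1, 3, 5 and 7, and 181, 298 and 305 CPM in the CD11b+ pool at days 1, 3 and 5. The CD11b+ pool was above the CD45+ library on each shared day for Mrc1, and Mrc1 at day 7 was 2.14-fold below the steady state, the smallest such difference of the 7 genes. Mgl2 measured 821 CPM in the steady state, 9.85, 8.32, 10.1 and 35.4 CPM at days 1, 3, 5 and 7, and 1.69, 10.7 and 4.25 CPM in the CD11b+ pool. Mgl2 had the largest difference of the 7 genes at day 7, 23.2-fold below the steady state, a log2 ratio of -4.53 (-4.74 to -4.34).

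The efferocytosis receptor Timd4 measured 74.6 CPM (66.1 to 83.8) in the steady state and 3.85, 0.832, 2.08 and 5.17 CPM at days 1, 3, 5 and 7, from 283, 9, 6, 14 and 33 UMIs. In the CD11b+ pool, Timd4 had 0 UMIs at day 1 and 0 at day 3, which allow up to 0.563 and 0.0842 CPM, and 9 UMIs from 2 cells at day 5. Timd4 thus rested on few counts from day 1 to day 5, and on 33 UMIs from 22 cells at day 7 (3.56 to 7.26 CPM). Lyve1 measured 301 CPM (284 to 319) in the steady state, 7.71, 2.63, 6.10 and 47.6 CPM at days 1, 3, 5 and 7, and 0, 5.50 and 2.03 CPM in the CD11b+ pool. The 0 of Lyve1 in the CD11b+ pool at day 1 allows up to 0.563 CPM, counting 3 UMIs in place of 0. At day 3 of that pool, 196 Lyve1 UMIs came from 14 of 1098 cells (1.28%). Counted in cells, 0 of 229 at day 1 allows up to 1.31%, so no minimum difference between these days is given.

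Folr2 measured 864 CPM (834 to 894) in the steady state and 16.3 (11.5 to 22.3), 51.6 (46.5 to 57.1), 101 (93.7 to 109) and 199 (188 to 210) CPM at days 1, 3, 5 and 7. In the CD11b+ pool, Folr2 measured 47.3 (41.6 to 53.5), 90.1 (87.0 to 93.3) and 115 (112 to 118) CPM at days 1, 3 and 5. Folr2 was thus higher on each successive day in both experiments, in steps larger than their counting intervals. Cbr2 measured 724 CPM in the steady state, 7.28, 15.3, 46.4 and 168 CPM at days 1, 3, 5 and 7, and 34.2, 53.5 and 46.7 CPM in the CD11b+ pool. Neutrophils, taken as background, had Folr2 at 16.5 CPM (6.65 to 34.1) and Cbr2 at 7.08 CPM (1.46 to 20.7) at day 3 of the CD45+ libraries. Once cells were thinned to 2000 UMIs, 3.97% of monocytes/macrophages and 3.70% of neutrophils there held Folr2, and 2.38 and 2.22% held Cbr2, so detection of both genes on that day was near background. At the other times with neutrophils, those cells had 0 to 7.84 CPM of Folr2 and 0 to 3.36 CPM of Cbr2. From day 5 to day 7, Lyve1 was 7.81-fold higher, Cd163 5.05-fold, Cbr2 3.63-fold, Mgl2 3.50-fold, Timd4 2.48-fold, Folr2 1.96-fold and Mrc1 1.13-fold. At day 7 none of the 7 had returned to its steady-state level: the ratios ranged from 2.14-fold lower (Mrc1) to 23.2-fold lower (Mgl2), with Cbr2 4.30-fold, Folr2 4.35-fold, Lyve1 6.32-fold, Cd163 6.95-fold and Timd4 14.4-fold lower.

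**Figure D1:**
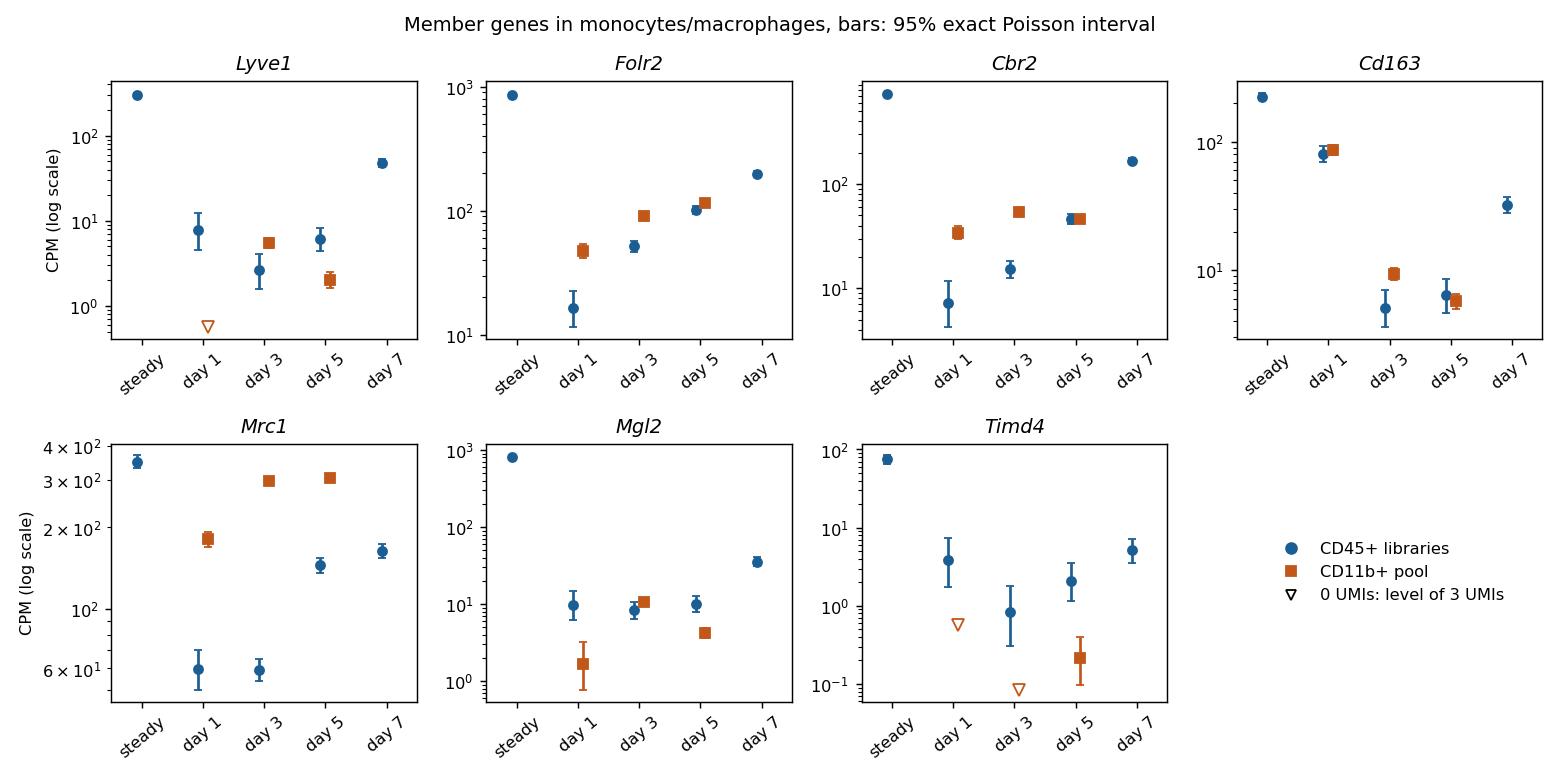
Level of each of the 7 genes in monocytes/macrophages by time (x axis, steady state and days after infarction) on a log scale of CPM (y axis), with exact Poisson 95% intervals, colored by experiment. All 7 genes are highest in the steady state, Cd163 drops between days 1 and 3 in both experiments, and Folr2 climbs from 16.3 to 199 CPM between days 1 and 7 of the CD45+ libraries.

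Days 1, 3 and 5 were sampled in both experiments, which gave 2 sums per day for a test across genes. edgeR's quasi-likelihood test was fitted to the 6 sums with the experiment as a block, with Benjamini-Hochberg adjustment across the 10603 genes that entered the test. All 7 genes passed the filter on low counts. From day 1 to day 3, 1 of the 7 passed an adjusted p of 0.05 (0.849% of all genes tested did, and 0.632% in the lower direction). This gene was Cd163, which fell by 3.72 ± 0.28 on the log2 scale (SE, 2 sums per day, adjusted p = 0.0229 by edgeR), 13.2-fold, with within-experiment changes of -4.21 in the CD45+ libraries and -3.41 in the CD11b+ pool. The 461 Cd163 UMIs of day 1 in the CD11b+ pool came from 24 of 229 cells. Without thinning, 10.5, 7.10 and 5.25% of cells of that pool held Cd163 at days 1, 3 and 5. In the CD45+ libraries these shares were 17.1, 2.06 and 3.27%.

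By day 5, again set against day 1, 2 of the 7 passed, compared with 10.4% of all genes (4.51% higher and 5.88% lower). Cd163 fell by 4.07 ± 0.29 (SE, 2 sums per day, adjusted p = 0.00445 by edgeR), 16.8-fold, and by near-equal amounts in the 2 experiments, with -3.95 and -4.11. Folr2 rose by 1.63 ± 0.31 (SE, 2 sums per day, adjusted p = 0.0309 by edgeR), 3.10-fold, with 2.31 in the CD45+ libraries and 1.08 in the CD11b+ pool. The Folr2 call was lost when the CD45+ day 5 sum was left out (adjusted p = 0.0815 by edgeR), when only the sums of both days were fitted (0.0869) and when each cell's own markers set its class (0.294), where the change was 0.50, while that of Cd163 held whichever sum was left out, at adjusted p-values up to 0.00692. With own markers, few cells stayed in the class at day 1 of the CD45+ libraries, as counted in the last section. Most cells of the class on that day were thus not so named by their own markers. Without the CD45+ day 1 sum, whose neutrophil markers were high, day 1 rested on the CD11b+ pool alone, where Lyve1 and Timd4 had 0 UMIs. The number of genes passing in that fit is therefore not read as a result. The calls of Cd163 and Folr2 were lost without the block for the experiment, where edgeR called 0 of the 10603 genes in either comparison. At an unadjusted p under 0.05 there were 526 and 1223.

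The changes of the other 5 genes from day 1 to day 5 were not past the threshold: Cbr2 1.18 ± 0.51, Mrc1 0.79 ± 0.30, Mgl2 0.23 ± 0.68, Lyve1 0.16 ± 1.24 and Timd4 -0.56 ± 1.01 (log2 ± SE), at adjusted p-values of 0.134 to 0.946 by edgeR. For Cbr2 and Mrc1, both experiments had the same sign, at 2.32 and 0.25 for Cbr2 and 0.97 and 0.55 for Mrc1. Lyve1 and Timd4 rest on sums of 0 in the CD11b+ pool, so their fitted changes depend on the small count the fit adds and give no bound. From day 3 to day 5, 0 of the 7 passed edgeR's test, beside 2 of all genes (0.0189%), although 818 genes had an unadjusted p under 0.05. DESeq2, run as an alternative, called 112 genes between those days and 0 of the 7. Scaling by total counts in place of TMM moved the median of all genes by 0.22 to 0.23 for the comparisons with day 1, and Cd163 and Folr2 kept their directions and their calls there.

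**Figure D2:**
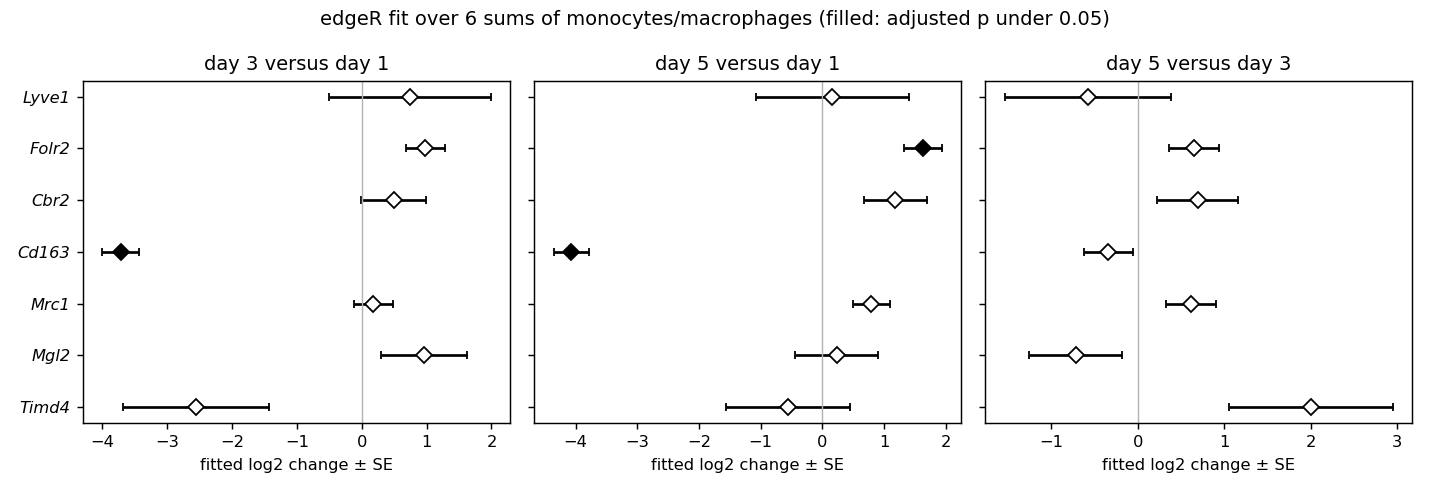
Fitted log2 changes of the 7 genes between days, from edgeR on 6 sums (points with SE bars, filled where the adjusted p was under 0.05). Cd163 lies at -3.72 and -4.07 for days 3 and 5 against day 1 and Folr2 at 1.63 for day 5 against day 1, the 3 changes that passed the test.

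Seen cell by cell at equal depth, most steady-state cells held several of the 7 transcripts and few cells of days 1 to 5 did, a share that moves with the level of each gene. To compare libraries of different depth, each cell was thinned to 2000 UMIs and shallower cells were left out, which removed 29 of 520 cells in the steady state and at most 12 in any other group. Of the steady-state cells, 385 of 491 (78.4%) had UMIs of at least 2 of the 7 genes. The shares at days 1, 3, 5 and 7 were 23 of 239 (9.62%), 18 of 630 (2.86%), 50 of 733 (6.82%) and 105 of 564 (18.6%). The CD11b+ pool had 17 of 227 (7.49%), 129 of 1086 (11.9%) and 152 of 1341 (11.3%) at days 1, 3 and 5. The steady-state share was the highest and the day 3 share of the CD45+ libraries the lowest of the 8.

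Transcripts free in the suspension can give such counts too, so the same share was taken in cells that should lack the genes. It was 0 of 190 neutrophils at day 1 (up to 1.58%), 1 of 135 (0.741%) at day 3 and 0 of 40 (up to 7.50%) at day 5 of the CD45+ libraries. Neutrophils of the CD11b+ pool had 1 of 232 (0.431%), 0 of 952 (up to 0.315%) and 0 of 210 (up to 1.43%), and 7 of 964 B cells at day 7 of the CD45+ libraries had them (0.726%). All cells were thinned to the same depth for this. The share in monocytes/macrophages was above these at each time that had such cells, though at days 3 and 5 of the CD45+ libraries the neutrophils' counting limits reach it. For at least 1 of the 7 genes, background was higher: 0 to 7.41% of neutrophils and 13.4% of day 7 B cells had a UMI in the same single thinning draw. In that draw, 548 of 630 monocytes/macrophages at day 3 of the CD45+ libraries held none of the 7. Their share with at least 1 was thus just under that of the day 7 B cells, which are from another library. Averaged over all thinning draws, which was done for monocytes/macrophages only, their shares were 14.4 to 94.1%.

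Without thinning, the share with at least 2 genes was 97.1, 14.2, 14.0, 31.4 and 54.1% in the CD45+ libraries and 28.4, 48.6 and 63.8% in the CD11b+ pool. In the CD45+ libraries, both forms were highest in the steady state, lowest on day 3 and higher on day 7 than on day 5. In the CD11b+ pool, the day 5 share was above that of day 3 only without thinning. For at least 3 genes, the thinned shares were 56.2, 4.18, 0.635, 1.23 and 11.3% in the CD45+ libraries and 0.441, 2.21 and 1.57% in the CD11b+ pool. Most day 7 cells with at least 2 of the genes thus had at least 3, and most such cells of day 5 did not.

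**Figure D3:**
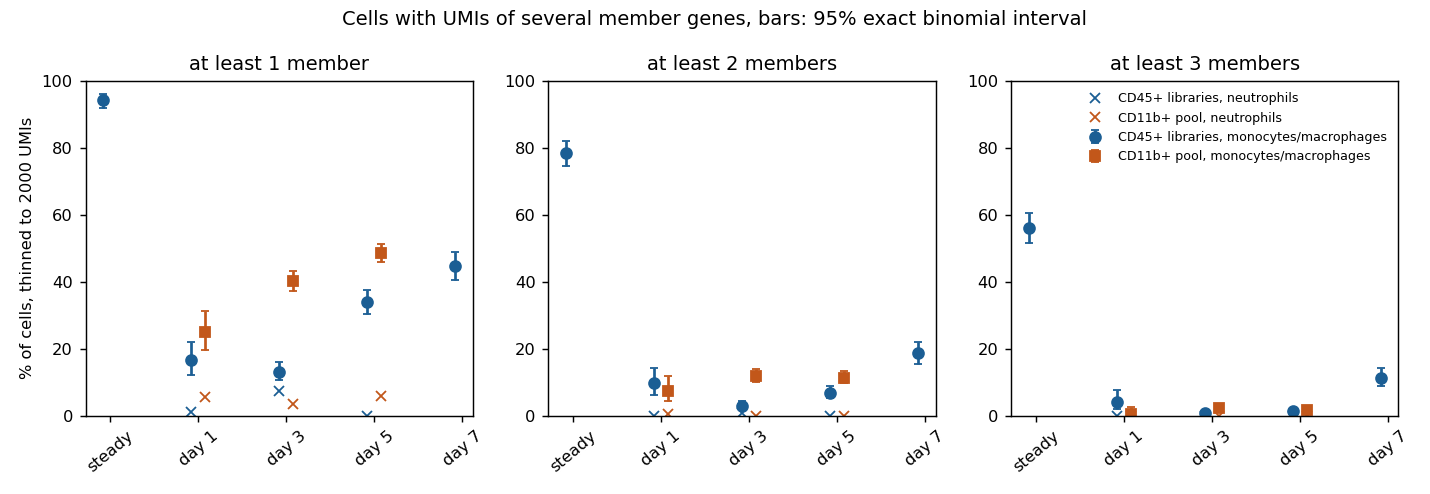
Share of monocytes/macrophages, each thinned to 2000 UMIs, with UMIs of at least 1, 2 or 3 of the 7 genes (3 panels) by time. The y axis is percent, with exact binomial 95% intervals, and crosses are neutrophils as background. For at least 2 genes, the share in the CD45+ libraries is 78.4% in the steady state, 2.86% at day 3 and 18.6% at day 7, and neutrophils stay at or below 0.741%.

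Which genes shared cells also differed between times. In the steady state, the 21 pairs of genes were found in the same cell 0.979 to 1.81 times as often as the product of their shares. At day 7 all 21 ratios were above 1, from 1.73 to 12.5. The largest ratio a pair can reach is set by the share of its commoner gene, which was higher in the steady state for every pair, so the 2 ranges are not on equal terms. The pair Lyve1 and Cd163 was together in 17 cells at day 7 against 2.23 from the product, a ratio of 7.61, and Cd163 with Timd4 in 7 cells, a ratio of 12.5. Among the fewer positive cells of days 1 and 3, some pairs were also together more often than the product. At day 1 of the CD45+ libraries, Lyve1 and Folr2 were together in 3 cells (a ratio of 12.0) and Cd163 and Mrc1 in 12 (4.99). Folr2 and Cbr2 were together in 32 (3.12) at day 3 of the CD11b+ pool. Other pairs were not: Mgl2 there was in 0 cells with Folr2 (2.10 from the product) and in 0 with Cbr2 (1.30). At day 1 of that pool, Folr2 and Mrc1 had a ratio of 1.03. Mrc1 had the lowest ratios at day 7, with Timd4 at 1.73 and with Folr2 at 1.80. The share of Lyve1-positive cells that also held Folr2 was 84.4% in the steady state and 80.6% at day 7, and all 9 Timd4-positive cells of day 7 held Folr2.

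**Figure D4:**
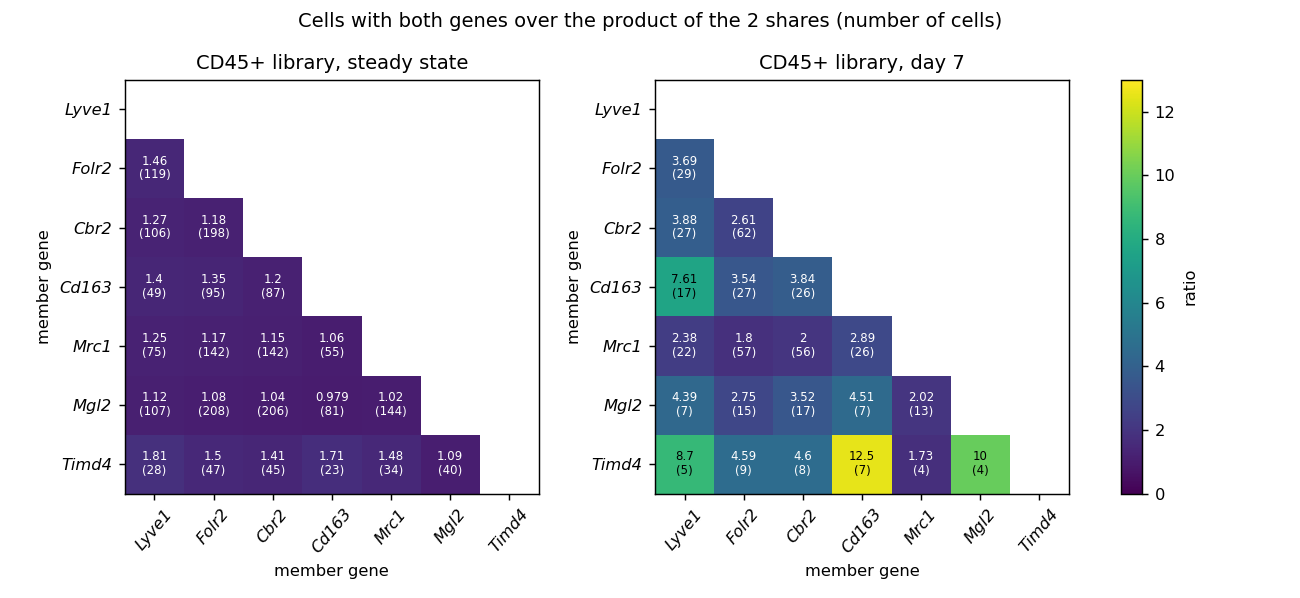
Observed cells with both genes of a pair divided by the number expected from the product of their shares, for the 21 pairs in the steady state and at day 7 of the CD45+ libraries (thinned to 2000 UMIs). Steady-state ratios lie between 0.979 and 1.81 and day 7 ratios between 1.73 and 12.5.

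In cells that held several of the other genes, Folr2, Cbr2 and Cd163 were at nearly the same level on day 7 as in the steady state, while Mgl2 was far lower. Each gene was counted in cells with UMIs of at least 2 of the other 6, so that its own level did not choose the cells. The genes shared cells more often than the product at day 7, so this choice also favors cells with the gene counted. The part of the choice in these levels was not tested. In the chosen cells, Folr2 had 2.18 UMIs per cell in the steady state and 1.89 at day 7. Cbr2 had 1.79 and 1.82, and Cd163 0.488 and 0.490. Lyve1 had 0.729 (0.646 to 0.821) and 0.505 (0.377 to 0.662), and Mrc1 0.743 and 1.09 (0.871 to 1.34). Mgl2 had 1.78 (1.64 to 1.94) UMIs per cell in the steady state and 0.263 (0.172 to 0.385) at day 7, with no overlap of the intervals. In the steady state Mgl2 was also found outside the group: of 66 cells with none of the other 6 genes, 38 (57.6%) held Mgl2, and counted the same way for each gene, 33.3% held Mrc1, 30.0% Cbr2, 26.3% Folr2, 9.68% Lyve1, 3.45% Cd163 and 0 of 28 Timd4. Mgl2 was also present in dendritic cells, at 59.3 and 110 CPM at days 5 and 7 of the CD45+ libraries and 352 and 245 CPM at days 3 and 5 of the CD11b+ pool. Timd4 measured 65.9 CPM (20 UMIs) in the 37 dendritic cells of day 5 in the CD45+ libraries, all from 2 cells, and had 0 UMIs in the 58 dendritic cells of day 7.

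**Figure D5:**
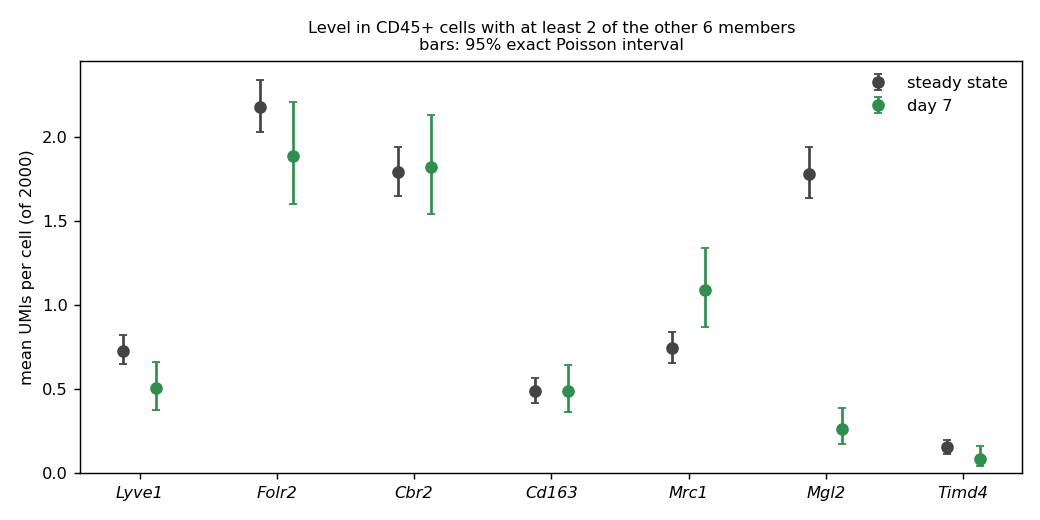
UMIs per cell of each gene (y axis, thinned to 2000 UMIs, exact Poisson 95% intervals) in cells with at least 2 of the other 6 genes, in the steady state and at day 7. Folr2, Cbr2 and Cd163 lie at nearly the same level at both times, while Mgl2 is at 1.78 and 0.263.

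The clusters, built without the 7 genes, divide them at day 7 into those held mostly by 1 small cluster and those also held by the large infarct clusters. Of the CD45+ libraries, a cluster led by Hspa1a, Cd81, Sepp1 (selenoprotein P) and Fcgrt, besides Mgl2, Folr2 and Cbr2, held 501 of 520 steady-state cells (96.3%), but 0.813, 0.476 and 1.77% of the class at days 1, 3 and 5 and 63 of 564 cells (11.2%) at day 7. Most cells of day 1 were in a cluster led by Saa3, Cxcl3 and Arg1 (82.5%), those of day 3 in one led by Plac8, Chil3 and Ly6c2 (72.1%) and those of days 5 and 7 in one led by Ms4a7, Gpnmb and Trem2 (60.7 and 66.8%). Values of the class at different times are therefore values of different clusters.

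At day 7, the 63 cells of the steady-state cluster held 63.2% of Lyve1, 77.7% of Cd163, 74.8% of Mgl2 and 78.8% of Timd4 UMIs of the class, but 45.6% of Folr2, 49.9% of Cbr2 and 25.7% of Mrc1 UMIs. Within that cluster, Lyve1 was at 356 CPM (308 to 410) at day 7 and 314 (296 to 333) in the steady state, and Cd163 at 297 and 234 CPM. Folr2 was at 1072 and 895 CPM there, Cbr2 at 994 and 752 CPM and Mrc1 at 499 and 359 CPM. Those 5 genes were thus at or above their steady-state level within the cluster. Mgl2 was at 313 CPM (268 to 364) against 847 (817 to 877), and Timd4 at 48.2 (31.5 to 70.7) against 76.3 CPM. A day 7 cluster of 33 cells led by Saa3, Fn1 and Ltc4s also had Lyve1 at 198 CPM, Folr2 at 475 and Cbr2 at 510 CPM, but Mgl2 at 2.54 CPM from 1 UMI.

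In the Ms4a7, Gpnmb and Trem2 cluster at day 5, Folr2 was at 118 CPM, Cbr2 at 47.9 and Mrc1 at 177 CPM, and the cluster held 80.1, 71.2 and 84.3% of the UMIs of these genes in the class. It held 9.76% of Lyve1, 18.6% of Cd163, 21.4% of Timd4 and 57.4% of Mgl2 UMIs, so Mgl2 did not follow the division of day 7. At day 7 the same cluster had Mrc1 at 138, Folr2 at 99.3 and Cbr2 at 64.0 CPM, against Lyve1 at 5.24, Cd163 at 4.37 and Timd4 at 0.218 CPM. The CD11b+ pool had a cluster with Gpnmb and Ms4a7 among its leading genes. At day 5 that cluster held 69.0% of Folr2 and 71.7% of Mrc1 UMIs, and 10.5% of Lyve1 UMIs. It also held 55.6% of Cd163 and 48.9% of Mgl2 UMIs there, and 0% of Timd4 UMIs. After infarction, most Folr2 and Mrc1 UMIs of the class at day 5 were thus in clusters that had little Lyve1 or Timd4.

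On day 1, Lyve1, Timd4, Folr2, Cbr2 and Mgl2 in the CD45+ library were mostly in few cells, while Cd163 and Mrc1 were spread more widely. In the CD45+ library, a cluster of 31 cells of that day led by the interferon-response genes Cxcl10, Rsad2 and Ifit1, with no marker of the class among its 10 leading genes, held 17 of 18 Lyve1 UMIs (94.4%), all 9 Timd4 UMIs and 73.7% of Folr2, 82.4% of Cbr2 and 69.6% of Mgl2 UMIs, but 38.3% of Cd163 and 49.6% of Mrc1 UMIs. There Lyve1 was at 93.6 CPM, Timd4 at 49.5, Folr2 at 154, Cd163 at 396 and Mrc1 at 380 CPM. The 203 cells of the large day 1 cluster held 58.5% of Cd163 and 46.8% of Mrc1 UMIs and had Lyve1 at 0.482, Folr2 at 4.82, Cd163 at 53.1 and Mrc1 at 31.4 CPM. In the CD11b+ pool, 51 cells of day 1 in a cluster led by Saa3, Ccl24 and Arg1 held 91.3% of Cd163 UMIs, at 303 CPM, and 76.6% of Folr2 UMIs, at 139 CPM, with 0 UMIs of Lyve1 or Timd4. Mrc1 was in 108 of all 229 cells there (47.2%), and those 51 cells held 52.7% of its UMIs. That cluster had 37 cells at day 5, where it held 77.9% of Lyve1 UMIs, and 8 of the 9 Timd4 UMIs were from 1 of its cells.

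Genes of other lists were read against the number of the 7 genes a thinned cell held. The lists follow cardiac macrophage biology, and F13a1, Pf4, Sepp1 and Mertk of the first are also markers that named the class. So are Ly6c2, Plac8, Chil3 and Vcan of the monocyte genes and Ccr2 of the MHC class II macrophage genes. Among the infarct macrophage genes, Arg1, Spp1, Trem2, Gpnmb and Fn1 are such markers too. The 28 other resident macrophage genes had on average 11.9 UMIs per cell in steady-state cells with none of the 7 and 31.5 in cells with at least 2, and 9.81 and 24.9 at day 7. Monocyte genes were lower in cells with at least 2 of the 7 in all 8 groups, for example 18.5 and 1.30 UMIs per cell at day 1 and 4.29 and 0.457 at day 7 of the CD45+ libraries. MHC class II macrophage genes were lower in those cells in 7 of the 8 groups, with 177 and 109 UMIs per cell in the steady state and 48.6 and 25.2 at day 7, and the exception was day 1 of the CD45+ libraries with 4.83 and 6.09.

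Between days 1 and 5, the 25 tested genes of the other resident list included 7 that rose and 3 that fell, where 4.51% of all genes tested rose and 5.88% fell, with a median log2 change of 1.06 against -0.01 over all genes. The 7 genes themselves had a median of 0.23. Igf1, a growth factor, rose by 4.80 on the log2 scale (adjusted p = 0.00842 by edgeR) and Gas6, a bridge between dying cells and MerTK, by 4.56 (adjusted p = 0.00937). Igf1 measured 191 CPM in the steady state, 3.85, 16.2, 164 and 217 CPM at days 1, 3, 5 and 7, and 7.88, 64.5 and 187 CPM in the CD11b+ pool, so that unlike the 7 genes it was above its steady-state level at day 7. Gas6 measured 392, 3.85, 26.3, 121 and 139 CPM, and 5.82, 92.5 and 127 CPM in the CD11b+ pool. Ccl24, an eosinophil-attracting chemokine, fell by 3.37 (adjusted p = 0.0231). Retnla, a secreted product of alternatively activated macrophages, also fell (adjusted p = 0.0369), from 8 to 1 UMIs in the CD45+ libraries and from 11 to 2 in the CD11b+ pool, and at counts this low the fitted change of -5.44 is not a measure of its size. Retnla was at 622 CPM in the steady state and at 0 to 7.05 CPM at all later times, and Ccl24 was at 553 CPM, then at 88.6, 58.1, 22.9 and 56.2 CPM, with 516, 73.9 and 33.8 CPM in the CD11b+ pool.

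Of the 8 MHC class II macrophage genes, 2 rose and 0 fell between days 1 and 5 (median 1.19, beside the same 4.51% and 5.88% of all genes): the fractalkine receptor gene Cx3cr1 by 2.00 and H2-Eb1 by 1.72, at adjusted p-values of 0.0122 and 0.0275 by edgeR. Of 11 monocyte genes tested, 0 rose and 7 fell (median -2.17, where 5.88% of all genes fell), led by Vcan, F10, Hp and Chil3 at -3.70, -3.28, -3.27 and -3.14. Of 14 infarct macrophage genes, 4 rose and 6 fell (median 0.12, where 4.51% of all genes rose and 5.88% fell). Gpnmb, Trem2 and Fabp5, genes of lipid-handling macrophages, rose by 4.50, 3.14 and 2.24 and Arg1 (arginase) fell by 3.38. Between days 1 and 3, the counts higher and lower were 0 and 0 for the other resident list, 0 and 0 for MHC class II, 0 and 2 for monocyte and 2 and 5 for infarct macrophage genes (0.217% of all genes were higher and 0.632% lower), and between days 3 and 5 no gene of these 4 lists passed edgeR's test.

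The genes most like the 7 were named by Pearson's correlation across the 520 steady-state cells between a gene and the summed 7, among 2069 genes at 50 CPM or more. Cells share 1 library and differ in depth, so the correlations are a description. F13a1 (the coagulation factor XIII A chain) had the highest, 0.662, followed by Sepp1 (0.573), Gas6 (0.553), Ltc4s (0.552), Pf4 (0.546), Itm2b (0.483), Fcgrt (0.481), Wfdc17 (0.473), C1qa (0.471) and Grn (0.460). Likeness in the steady state did not carry over to the time course of F13a1, which measured 795 CPM in the steady state and 917, 345, 191 and 275 CPM at days 1, 3, 5 and 7. Fcgrt, the neonatal Fc receptor gene, measured 738, 8.56, 30.0, 113 and 189 CPM, with its low point on day 1 as for Folr2 and Cbr2.

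Surface antibodies gave a readout apart from mRNA in the CD11b+ pool. On day 1, the 17 cells with at least 2 of the 7 genes had a median of 105 antibody UMIs for Ly6C, the surface protein of inflammatory monocytes, against 206 in the 170 cells with none. Their medians were higher for the macrophage Fc receptor CD64 (61.0 against 33.5), the scavenger receptor MSR1 (55.0 against 27.0), F4/80 (104 against 65.5) and CX3CR1 (89.0 against 55.0). The remaining antibodies were higher too, so the rise was not limited to macrophage proteins. They were the neutrophil antibody Ly6G (141 against 108), MHC class II (84.0 against 71.0), CD11c (70.0 against 48.0), CCR2 (61.0 against 51.0) and TIM4 (35.0 against 29.0). The median antibody total was 813 against 724 UMIs and the median RNA depth 29307 against 21305, whose part in these differences was not tested. Ly6C, CD64, MSR1, F4/80 and CX3CR1 had the same directions at day 3. Ly6C was at 75.0 against 135, CD64 at 66.0 against 41.0, MSR1 at 40.0 against 26.0, F4/80 at 77.0 against 65.0 and CX3CR1 at 81.0 against 57.0. Day 5 had Ly6C at 68.0 against 76.0, CD64 at 63.0 against 49.0, MSR1 at 36.0 against 26.0, F4/80 at 75.5 against 65.0 and CX3CR1 at 86.0 against 65.0. Ly6G, MHC class II, CD11c and TIM4 were also higher on both days, and CCR2 was not at day 5 (45.0 against 46.0). Antibody totals were 754 against 758 UMIs at day 3 and 724 against 695 at day 5, and RNA depths 35419 against 24509 and 30027 against 25100.

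The TIM4 antibody, directed at the protein of Timd4, had medians of 29.0, 29.0 and 28.0 UMIs in monocytes/macrophages at days 1, 3 and 5, beside 29.0, 30.0 and 28.0 in neutrophils, which do not make it. Its bulk signal was thus at the neutrophil level on each day, as Timd4 mRNA was at or near 0. The 2 Timd4-positive cells of day 5 had a median of 116 TIM4 UMIs at a median antibody total of 1271, against 705 in cells without Timd4, and 1 of these 2 was above the neutrophils' 99th percentile of 58.9. In all, 3 of 229, 28 of 1098 and 12 of 1353 cells exceeded that percentile of their day (57.0, 51.1 and 58.9) at days 1, 3 and 5. Of these, 0, 0 and 1 had a Timd4 UMI. By definition 99% of neutrophils lie at or below the percentile, so a few cells above it are found without TIM4 too. Whether the cells above it carried TIM4 was not tested.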

How the data were processed

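UMI counts per gene and cell were deposited by the authors as 10x matrices, made with Cell Ranger on mm10/GRCm38 per the submitters' processing notes, version 3.0.2 in the headers of the 2 pools. The authors also deposited hashtag and surface antibody counts. The annotation release behind the matrices is not given in the sources used here. The 7 genes and all lists were chosen with earlier results of these data known. Barcodes needed 200 or more genes and no more than 10% mitochondrial UMIs, which left 522 to 1793 cells per CD45+ library, 4282 in the CD11b+ pool and 9999 in the pool of blood and heart. Scrublet removed 2 to 6 doublets per CD45+ library, and cells with several or no hashtags were removed from both pools. Under 0.5% of barcodes in some libraries were called doublets, so doublets may remain.

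Cells were clustered with scanpy 1.11.5 (2000 variable genes without the 7, 30 principal components, 15 neighbours, Leiden resolution 0.5) and clusters were named where at least 3 fixed markers were 1.5-fold above the rest. Counts of the class (2335112 to 42337058 UMIs per sum) were summed per day and experiment and tested with edgeR 4.0.16 (quasi-likelihood, TMM, filter on low counts, day plus experiment, two-sided, Benjamini-Hochberg, threshold 0.05). The common biological coefficient of variation was 19.5%. Mice were pooled before sequencing, so p-values do not measure the spread between mice. The block takes up the level difference between the 2 experiments, which differ in sort and chemistry. What remains, and what the p-values rest on, is how far the changes between days differed between the experiments, with spread shared across genes. The test was checked on simulated counts in which 200 genes changed by 2 on the log2 scale. It recovered 91.0, 91.0 and 95.5% of them for days 3 against 1, 5 against 1 and 5 against 3. Of the genes called, 8.08, 2.15 and 3.05% were false. No difference between the experiments was simulated, so the check does not cover the spread that the p-values rest on. DESeq2 1.42.0 was an alternative. Shares have exact binomial (Clopper-Pearson) and levels exact Poisson 95% intervals, and a count of 0 was given an upper limit of 3 counts. All 7 genes were named in every library, likewise the 10 most correlated genes and, per list, the 4 genes with the largest called change from day 1 to day 5. Promoter windows and motifs were read from RefSeq's table.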

Additional observations from a re-analysis of the deposited data

Results flagged for a closer look

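From day 3 to day 5, log2 ratios had opposite signs in the 2 experiments for 4 of the 7 genes, and for 2 of them, Lyve1 and Cbr2, the counting interval left out 0 in both experiments. Lyve1 had a log2 ratio of 1.21 (0.39 to 2.08, counting error) in the CD45+ libraries and of -1.44 (-1.82 to -1.06) in the CD11b+ pool. Cbr2 had 1.61 (1.29 to 1.93) and -0.20 (-0.29 to -0.10). Cd163 had 0.32 (-0.35 to 0.99) and -0.70 (-0.95 to -0.46), and Mgl2 0.28 (-0.24 to 0.81) and -1.33 (-1.60 to -1.07). Each experiment has 1 sum per day, and the difference between experiments was not tested.

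The blood and heart pool, whose hashtags could not be tied to conditions, also held UMIs of 6 of the 7 genes in its 3323 monocytes/macrophages: 8 of Lyve1, 78 of Folr2, 207 of Cbr2, 94 of Cd163, 586 of Mrc1 and 48 of Mgl2, and 0 of Timd4. Of 3284 cells thinned to 2000 UMIs, 12 (0.365%) held at least 2 of the genes. All 8 Lyve1 UMIs were under hashtag 7, from 2 cells, and Mrc1 measured 63.5 CPM under hashtag 6 and 50.8 CPM under hashtag 7, against 1.96 to 7.56 CPM under the other 5 hashtags. Cd163 measured 14.9 CPM under hashtag 7 and 0.135 to 2.70 CPM under the other 6.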

How the results depend on the processing

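Of 7 genes, the number past the threshold was 1, 2 and 0 for days 3 against 1, 5 against 1 and 5 against 3. Without the experiment block it was 0, 0 and 0. With only the 2 days compared it was 1 for days 5 against 1 and 1 for days 5 against 3, and when each cell's own markers set its class, 1 for days 5 against 1. Leaving out 1 sum at a time changed the number in some fits, but each such fit leaves 1 sum on a day, so these numbers are not given. Over all genes (90, 1101 and 2 called), DESeq2 called 515, 1648 and 112, no filter 577, 1737 and 97, total counts 6, 979 and 0, own markers 252, 1050 and 260, and only the 2 days compared 155, 234 and 1009. Cd163 was called in every alternative against day 1 but that without the block (adjusted p = 0.768 and 0.153 by edgeR), and Folr2 was lost in 3, at adjusted p up to 0.294. Signs reversed without the block for Lyve1 (-0.21, -0.16 and 0.05 for the 3 comparisons), with own markers for Folr2 (-0.14) and Mrc1 (-0.78) at days 3 against 1, Mrc1 at days 5 against 1 (-0.27) and Mgl2 at days 5 against 3 (0.29), and with DESeq2 for Timd4 at days 5 against 1 (0.07). Leaving out 1 sum gave Lyve1 -1.13 to 9.32, -1.37 to 8.78 and -1.84 to 1.76, Mgl2 -0.14 to 2.26, -0.75 to 1.53 and -1.55 to 0.51, Timd4 -5.15 to 2.81 and -1.14 to 4.74 against day 1, Cbr2 -0.03 to 1.49 (days 3 against 1) and -0.22 to 1.62 (5 against 3), Mrc1 -0.36 to 0.64 (3 against 1) and Cd163 -0.68 to 0.21 (5 against 3). The causes were not tested. Of 185 other log2 values, 171 kept direction and side of the threshold, as did 102 of 126 with 1 sum left out.

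The share with at least 2 genes thinned to 1000 UMIs was 61.7, 6.10, 1.11, 2.59 and 12.2% in the CD45+ libraries and 4.94 and 4.01% at days 3 and 5 of the CD11b+ pool. Without thinning it was 97.1, 14.2, 14.0, 31.4 and 54.1%, and 28.4, 48.6 and 63.8%. With own markers it was 26.7% (4 of 15 cells) at day 1 and 9.0% at day 5 of the CD45+ libraries and 12.9 and 15.2% at days 1 and 3 of the pool, and with a mitochondrial limit of 20% it was 5.65% at day 1 and 22.3% at day 7 of the CD45+ libraries. The order of steady state, then day 7, above days 1, 3 and 5 of the CD45+ libraries held in these, except with own markers. Alternatives chosen after seeing the data were 0.05 in place of 1 added in naming clusters, and the share expected over all thinning draws (79.1, 7.33, 2.90, 8.17 and 19.2%, and 7.47, 10.7 and 12.0%), in which day 5 exceeds day 1 in the CD45+ libraries and day 3 in the pool. The experiment block pairs the days within each experiment, and no further pairing by replicate number was made because the labels give none. Depth limits Timd4 and Lyve1, which have at most 41 UMIs per CD45+ sum at days 1 to 5.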
